A study of Felis catus with 8 samples.

Results

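OSGIN1, OSGIN2 and 8 genes of the NRF2 antioxidant pathway were followed in the liver of male domestic cats on 4 diets. The 10 genes were OSGIN1, OSGIN2, NFE2L2, KEAP1, NQO1, HMOX1, GCLC, GCLM, TXNRD1 and SRXN1, out of 17910 genes measured. They were taken by symbol: a probe set counted where the array's annotation names that gene and no other. This gave 98 probe sets, of which 68 were bright enough to keep, and a gene's value is the mean log2 intensity of its kept probe sets. All 10 genes kept at least 3 probe sets. OSGIN2 was chosen because it was low on all 3 test diets in these data, so its values are a description and carry no test. The other 9 genes were added as partners, sensors or targets of the same pathway.

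NRF2, the product of NFE2L2, is a transcription factor that switches on genes against oxidants and reactive chemicals. KEAP1 holds it in the cytoplasm and hands it to a ubiquitin ligase for destruction, and oxidants release it. In liver its targets make glutathione, reduce thioredoxin and quinones, and break down haem. OSGIN1, an oxidative stress-induced growth inhibitor, is a target of NRF2 in human cells, and OSGIN2 is its paralogue. These roles come from human and mouse work.

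Each diet had 2 arrays, labelled as biological replicates, from cats aged 9 months. The combined diet held 8.6% trans fat, 24% high-fructose corn syrup (HFCS) and 1.125% monosodium glutamate (MSG). The trans-fat/HFCS diet held the same trans fat and HFCS without MSG. The MSG diet was the control chow with 1.125% MSG, and control cats ate the chow without additions. In every group the dams ate the diet from 3 weeks before mating through nursing, and the sons were weaned onto it, so exposure before birth, in milk and after weaning cannot be told apart. The labels number the biological replicates but give no litters and say nothing of pooled RNA. The p-values therefore measure only the spread between these arrays.

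Cat RNA was hybridised to a human array, and a probe set is bright only where cat and human sequences match. Levels are therefore compared between diets within a gene and not between genes. The median intensity was 5.25 to 5.28. Same-diet pairs of arrays had r of 0.946 to 0.968 across genes and different-diet pairs 0.917 to 0.956, so these ranges overlapped. The summed intensity of 13 hepatocyte markers was 4556 to 4807 on the combined diet, 4724 to 4864 on the trans-fat/HFCS diet, 4775 to 5388 on the MSG diet and 4777 to 5120 on control, and these ranges overlapped. Skeletal muscle markers stood out in the trans-fat/HFCS cats: the summed intensity of 14 markers was 220 to 240 on the combined diet, 843 to 855 on the trans-fat/HFCS diet, 227 to 230 on the MSG diet and 213 to 220 on control. In whole liver, fewer cells of a type and less RNA per cell cannot be told apart.

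OSGIN2 was low on every array of the 3 test diets and high on both control arrays. Its log2 intensity was 4.25 and 4.52 on the combined diet, 4.14 and 4.42 on the trans-fat/HFCS diet and 4.43 on both MSG arrays, against 6.65 and 6.57 on control. The 6 test arrays lay within a narrow band, and the lowest control array stood far above the highest of them. Relative to control, OSGIN2 was 4.67-fold lower on the combined diet (log2 -2.22), 5.03-fold lower on the trans-fat/HFCS diet (log2 -2.33) and 4.53-fold lower on the MSG diet (log2 -2.18). Among themselves the test diets differed little. The combined diet differed from the MSG diet by -0.04 and from the trans-fat/HFCS diet by 0.11, and the trans-fat/HFCS diet differed from the MSG diet by -0.15, all on the log2 scale. The mean levels ran from control down through MSG and combined to trans-fat/HFCS, and the combined arrays spanned the MSG values and overlapped those of trans-fat/HFCS.

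**Figure D1:**
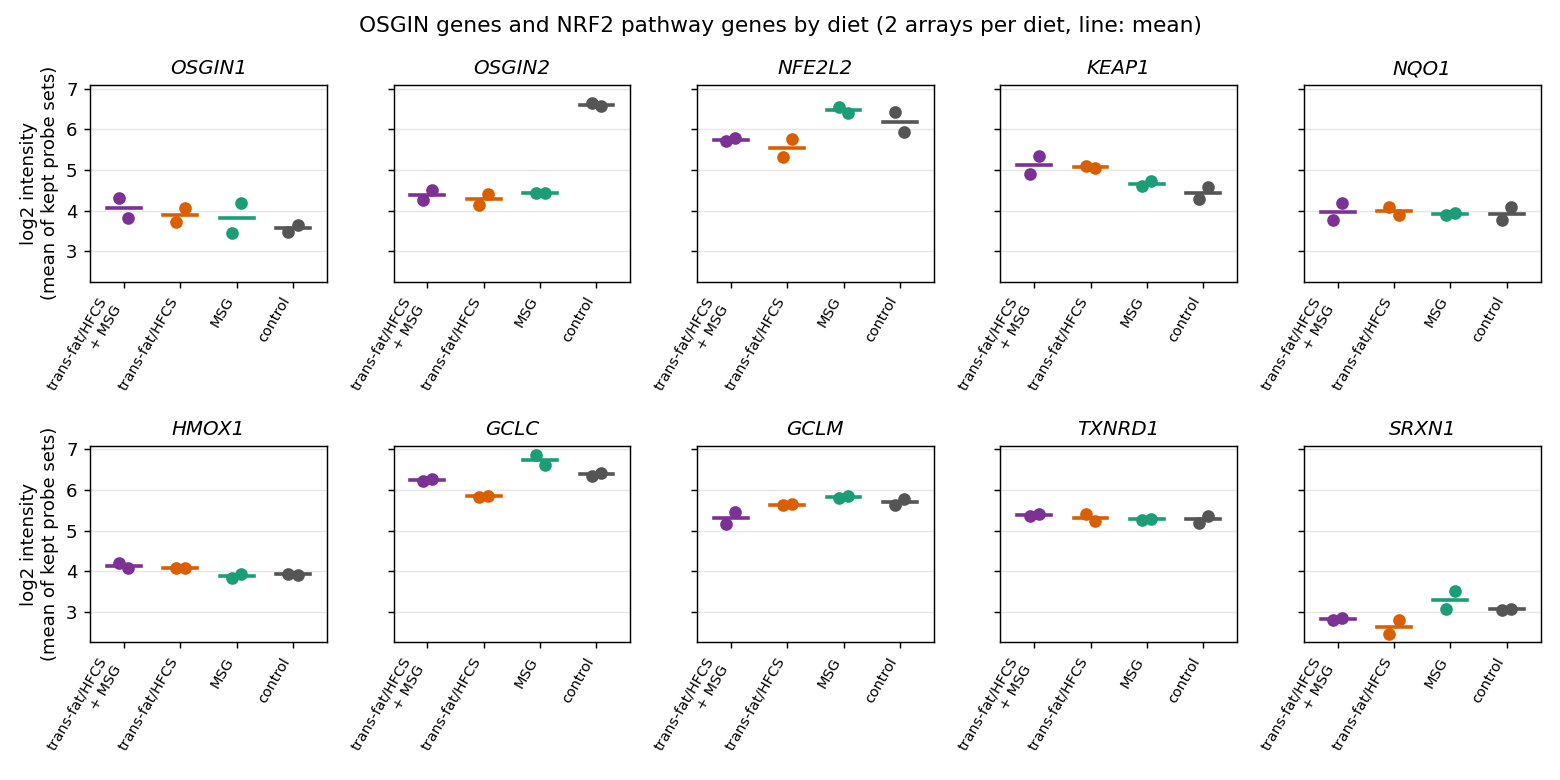
Log2 intensity (mean of kept probe sets) of the 10 genes on each of the 8 arrays, grouped by diet, with a line at the mean of each diet. OSGIN2 stands at 6.65 and 6.57 on the control arrays and at 4.14 to 4.52 on the other 6, while the remaining genes span far less.

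The single probe sets hold the values on which OSGIN2 was chosen, so they too are a description. On each of the 5 kept OSGIN2 probe sets both control arrays lay above all 6 other arrays, a pattern of 5.05% of all kept probe sets. The brightest had log2 6.37 and 7.12 on the combined diet, 6.65 and 6.57 on the trans-fat/HFCS diet, 6.88 and 7.15 on the MSG diet, and 9.32 and 9.25 on control. The next had 4.98 and 4.88 on the combined diet, 5.16 and 5.28 on the trans-fat/HFCS diet, 6.12 and 5.36 on the MSG diet, and 8.24 and 8.34 on control. Both showed gaps to control of the same order as the gene mean. Changes of the 5 probe sets ran from -3.36 to -0.64 on the combined diet, from -3.07 to -1.20 on the trans-fat/HFCS diet and from -2.62 to -0.99 on the MSG diet. The smallest of these belonged to the dimmest kept probe set, at log2 2.63 and 2.58 on the combined diet, 2.05 on each trans-fat/HFCS array, 2.17 and 2.34 on the MSG diet, and 2.98 and 3.50 on control. It passed the filter at 2.43 with a mean of 2.54 that includes a control mean of 3.24, while its means on the trans-fat/HFCS and MSG diets, 2.05 and 2.26, lay below the filter. The 1 probe set left out lay at a mean of 1.88, under the filter, and showed no decrease, with changes between 0.02 and 0.13. Leaving out any 1 of the 5 left changes between -2.62 and -1.94 on all 3 diets.

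**Figure D2:**
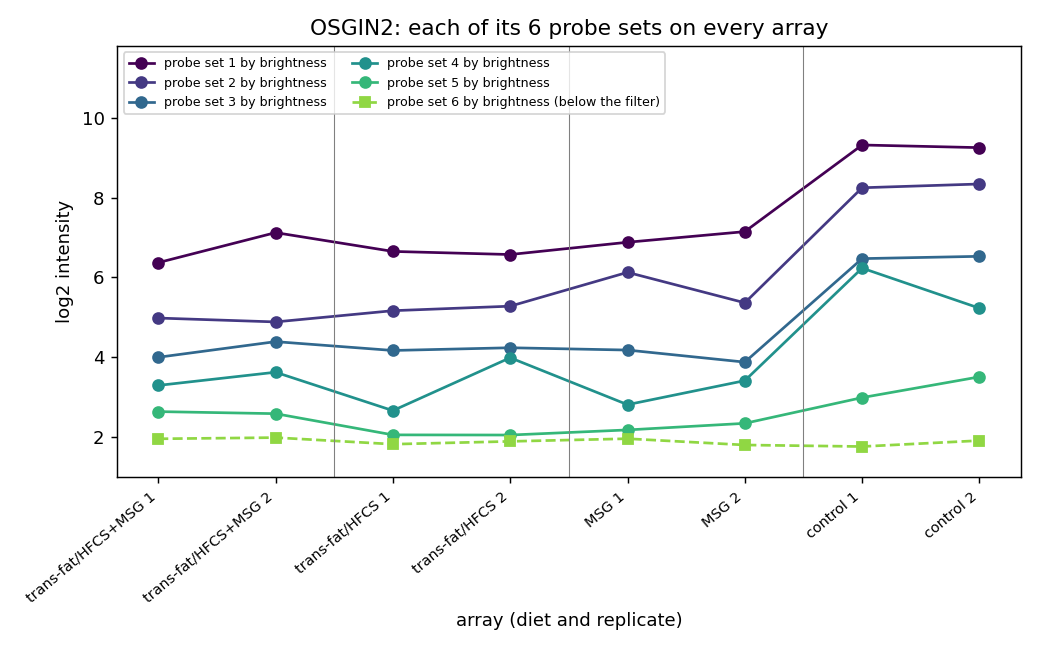
Log2 intensity of each of the 6 OSGIN2 probe sets on every array, ordered by diet and numbered from the brightest. The 5 kept probe sets (circles) all lie higher on both control arrays than on the other 6 arrays, and the probe set below the filter (squares) stays near 1.88.

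Across the array, both control arrays lay above the other 6 in 1013 of 17910 genes (5.66%), and 3 genes (0.0168%) did so with a mean of the test arrays at least 4-fold lower. OSGIN2 was 1 of those 3. Ranked by the smallest of the 3 decreases, OSGIN2 came first of all 17910 genes with -2.18. It was chosen for these decreases, so the count and the rank describe that choice and carry no test. The same 2 control arrays stand behind all 3 differences, so diet and any other property of those 2 arrays or their cats cannot be told apart. None of the other 9 genes had both control arrays above the rest, and 1, KEAP1, had both below (6.01% of genes).

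The genes whose values over the 8 arrays were most like those of OSGIN2 were ELF3, ITGA6, FRK, NFKBIZ and ACSL4. They were the highest by Pearson's r among 661 genes with at least 2 kept probe sets and a standard deviation of at least 0.5, and they share the arrays with OSGIN2, so r is a description. ELF3, an epithelial transcription factor of the ETS family, had r = 0.98. Its mean log2 intensity was 3.37 on the combined diet, 3.20 on the trans-fat/HFCS diet, 3.31 on the MSG diet and 4.72 on control. ITGA6, the alpha subunit of laminin-binding integrins (r = 0.95), stood at 4.45, 4.49 and 4.33 on the combined, trans-fat/HFCS and MSG diets, and at 5.46 on control. FRK, a tyrosine kinase related to SRC (r = 0.92), stood at 3.42, 3.60 and 3.67 on those diets and at 4.95 on control.

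NFKBIZ, a nuclear regulator of NF-kappa-B target genes (r = 0.90), had 3.98, 4.47 and 3.96 on the combined, trans-fat/HFCS and MSG diets, and 5.45 on control. ACSL4, which activates long polyunsaturated fatty acids (r = 0.90), was graded rather than flat. It stood at 7.06 on the combined diet, 7.33 on the trans-fat/HFCS diet, 7.82 on the MSG diet and 8.69 on control. The smallest decrease among these 5 genes was -0.88, for ACSL4 on the MSG diet.

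**Figure D3:**
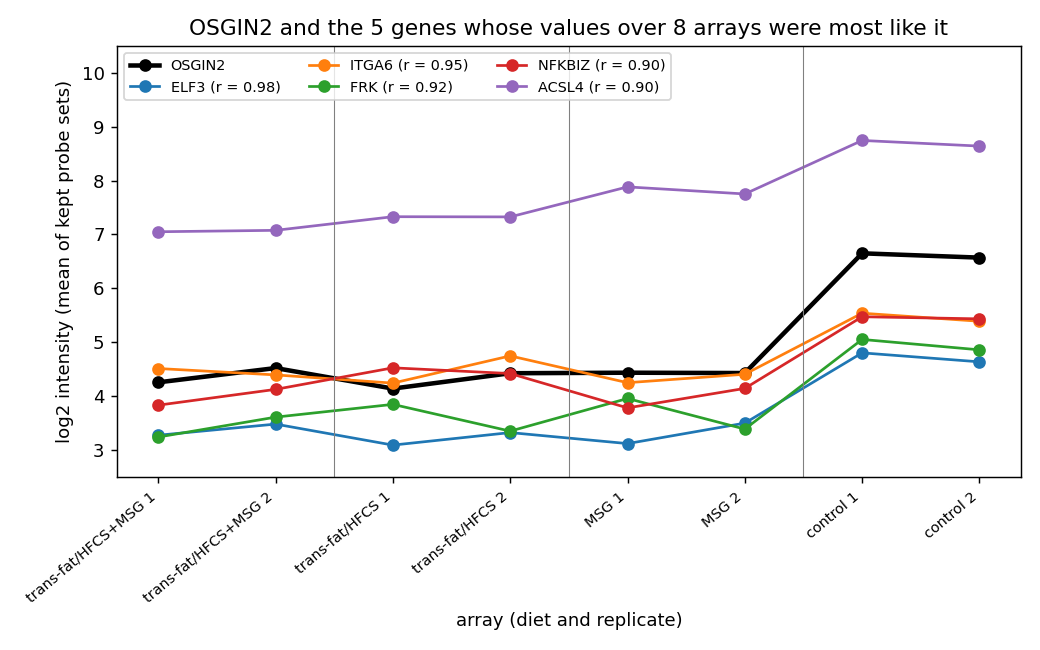
Log2 intensity (mean of kept probe sets) of OSGIN2 and of the 5 genes with the highest Pearson's r to it, on each of the 8 arrays ordered by diet. All 6 lines are highest on both control arrays, and ACSL4 also steps down from MSG to the diets with trans fat and HFCS.

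The genes next to OSGIN2 in the cat gene table did not show differences of its size. NBN, a DNA repair protein, had log2 4.26 and 4.24 on the combined diet, 4.33 and 4.61 on the trans-fat/HFCS diet, 4.49 and 4.46 on the MSG diet, and 4.84 and 4.65 on control. All 6 test arrays lay below both control arrays, but by far less than for OSGIN2. Its changes of -0.49, -0.28 and -0.27 on the combined, trans-fat/HFCS and MSG diets missed the threshold (adjusted p = 0.2, 0.443 and 0.811 in limma). RIPK2, the kinase on the other side, differed by -0.25, -0.07 and 0.35 on the combined, trans-fat/HFCS and MSG diets (adjusted p = 0.544, 0.874 and 0.753 in limma). DECR1, a fatty acid oxidation enzyme one gene beyond NBN, had log2 6.35 and 6.11 on the combined diet, 6.35 and 6.53 on the trans-fat/HFCS diet, 6.42 and 6.37 on the MSG diet, and 6.70 and 6.56 on control. Its control arrays also lay above the rest, with changes of -0.40, -0.19 and -0.23 (adjusted p = 0.289, 0.606 and 0.843 in limma). MMP16 and CALB1 differed from control by between -0.35 and 0.33, with control overlapping the test arrays. These neighbours were chosen by position after the files were opened.

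OSGIN1 did not follow OSGIN2. Its log2 intensity was 4.30 and 3.82 on the combined diet, 3.72 and 4.06 on the trans-fat/HFCS diet, 3.44 and 4.19 on the MSG diet, and 3.47 and 3.66 on control. The arrays of the combined and trans-fat/HFCS diets lay above both control arrays, while the MSG arrays differed most from each other and overlapped control. The change was 0.50 on the combined diet (SE 0.27, adjusted p = 0.399 in limma), 0.33 on trans-fat/HFCS (SE 0.27, adjusted p = 0.574) and 0.25 on the MSG diet (SE 0.27, adjusted p = 0.899). Each was positive, opposite to OSGIN2, and none passed. The order of means was combined, trans-fat/HFCS, MSG, control, and no neighbours in it differed beyond their spread. Over the 8 arrays OSGIN1 and OSGIN2 had r = -0.53.

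Of the 8 probe sets of OSGIN1, 6 were higher and 2 lower than control on the combined diet (-0.19 to 1.16). On trans-fat/HFCS 7 were higher and 1 lower (-0.23 to 0.71), and on the MSG diet 3 were higher and 5 lower (-0.80 to 1.63). None passed in any of these comparisons (limma over all kept probe sets). The brightest had log2 5.96 and 6.26 on the combined diet, 6.51 and 6.81 on the trans-fat/HFCS diet, 4.66 and 5.63 on the MSG diet, and 6.04 and 5.85 on control. Another read 4.75 and 3.33 on the combined diet, 2.78 and 3.93 on the trans-fat/HFCS diet, 3.64 and 5.92 on the MSG diet, and 2.93 and 3.37 on control. The first had its lowest mean on the MSG diet and the second its highest. The genes most like OSGIN1 over the arrays, among 9962 with at least 2 kept probe sets and a standard deviation of at least 0.2, were XRRA1, CCDC43, TIMM10, TRIM45 and SLC26A1, with r between 0.94 and 0.98 and changes of at most 0.47 on any diet.

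The next question was whether the sensor, the factor and the targets differed between diets with and without trans fat and HFCS, averaged over both levels of MSG (4 arrays against 4). NFE2L2 and GCLC fell and KEAP1 rose. limma called these 3 of the 9 genes at a Benjamini-Hochberg adjusted p under 0.05 (33.3%), where 7.66% of all genes were called. The median change of the 9 was 0.06, beside 0.02 over all genes. By direction 1 rose, where 4.44% of genes rose, and 2 fell, where 3.22% fell. Without any 1 array the count was 1 or 0: it was 0 without control array 1, MSG array 1, trans-fat/HFCS array 1 or combined array 2, and 1 without control array 2, MSG array 2, trans-fat/HFCS array 2 or combined array 1.

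NFE2L2, the gene of NRF2 itself, had log2 5.71 and 5.78 on the combined diet and 5.31 and 5.76 on the trans-fat/HFCS diet, against 6.56 and 6.41 on the MSG diet and 6.43 and 5.93 on control. All 4 arrays with trans fat and HFCS lay below the other 4, although the gap to control array 2 was small. The gene was 1.61-fold lower (log2 -0.69, SE 0.16, adjusted p = 0.0328 in limma). The change was -0.74 (SE 0.22) between the combined and MSG diets and -0.64 (SE 0.22) between trans-fat/HFCS and control, pairs that share no array. The call remained without control array 2 or trans-fat/HFCS array 2 and ended without any other 1 array (adjusted p up to 0.117 in limma).

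A single probe set made up much of the NFE2L2 change. It had log2 2.98 and 3.09 on the combined diet and 2.41 and 2.46 on the trans-fat/HFCS diet, against 4.21 and 4.01 on the MSG diet and 4.82 and 4.13 on control. Its change was -1.56 and passed when all kept probe sets were tested (adjusted p = 0.0192 in limma, where 2.71% of probe sets were called). Its values on the trans-fat/HFCS diet lay close to the filter at 2.43. The 3 other kept probe sets also had negative changes, of -0.54, -0.33 and -0.33, and none passed. Without that probe set the gene mean changed by -0.40, and with the 75th percentile filter, which removes it, the call ended (adjusted p = 0.176 in limma). The call also ended with the median of the probe sets (log2 -0.48, adjusted p = 0.268 in limma) or the brightest (log2 -0.33, adjusted p = 0.2). The 2 brightest were highest on the MSG diet, at 8.42 and 8.48 and at 8.43 and 8.50, beside 7.90 and 8.06 and 7.93 and 7.87 on control.

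KEAP1, which marks NRF2 for degradation, went the other way. Its log2 intensity was 4.91 and 5.36 on the combined diet and 5.10 and 5.06 on the trans-fat/HFCS diet, against 4.60 and 4.73 on the MSG diet and 4.28 and 4.57 on control. All 4 arrays with trans fat and HFCS lay above the other 4. KEAP1 was 1.47-fold higher (log2 0.56, SE 0.14, adjusted p = 0.0458 in limma). The change was 0.47 (SE 0.20) between the combined and MSG diets and 0.65 (SE 0.20) between trans-fat/HFCS and control. All 4 kept probe sets had positive changes, from 0.36 to 0.88. The brightest, at log2 6.91 and 7.01 on the combined diet and 6.70 and 6.59 on the trans-fat/HFCS diet, against 5.59 and 5.95 on the MSG diet and 6.09 and 6.07 on control, separated the groups by itself. With the median of the probe sets the KEAP1 call ended (adjusted p = 0.115 in limma), as it did with the 75th percentile filter (adjusted p = 0.0529) and without any 1 array other than combined array 1 (adjusted p up to 0.156).

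GCLC encodes the catalytic subunit of the enzyme that starts glutathione synthesis. It had log2 6.23 and 6.27 on the combined diet and 5.83 and 5.86 on the trans-fat/HFCS diet, against 6.87 and 6.62 on the MSG diet and 6.34 and 6.43 on control. The 4 arrays with trans fat and HFCS lay below the other 4, although the gap between combined array 2 (6.27) and control array 1 (6.34) was small. Arrays of 1 diet lay close together except on the MSG diet. GCLC was 1.43-fold lower (log2 -0.52, SE 0.12, adjusted p = 0.0314 in limma). The change was -0.49 (SE 0.16) between the combined and MSG diets and -0.54 (SE 0.16) between trans-fat/HFCS and control. Between the combined diet and control it was only -0.13 (SE 0.16, adjusted p = 0.736 in limma). MSG moved GCLC by 0.38 on average over both base diets (SE 0.12), which missed the threshold (adjusted p = 0.425 in limma).

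Of the 10 kept GCLC probe sets, 7 had negative and 3 positive changes, from -1.66 to 0.31, and none passed alone. The lowest came from a probe set that read 6.54 and 7.56 on the combined diet, 5.88 and 2.48 on the trans-fat/HFCS diet, 7.19 and 7.47 on the MSG diet, and 7.77 and 6.65 on control. Its change rested in large part on trans-fat/HFCS array 2, and the gene mean changed by -0.39 without it. The brightest probe set had a change of 0.087, so the direction turned when it alone stood for the gene (adjusted p = 0.769 in limma). With the median of the probe sets the change was -0.91 and missed the threshold (adjusted p = 0.0646 in limma). The call also ended without any 1 array other than MSG array 2 (adjusted p up to 0.11).

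**Figure D4:**
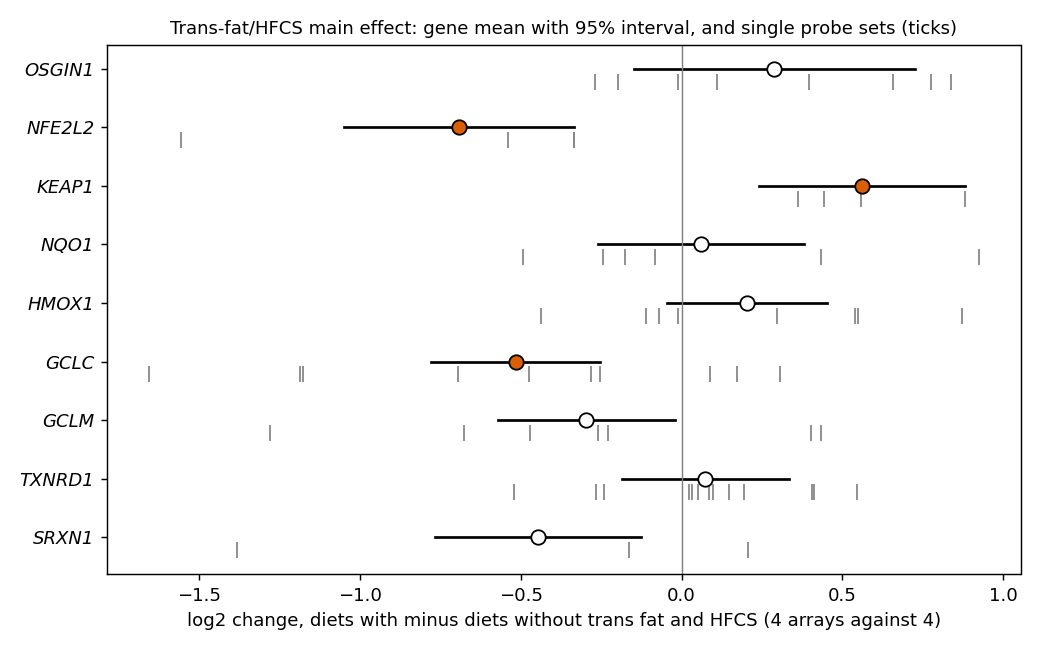
Log2 change between diets with and without trans fat and HFCS (4 arrays against 4) for 9 genes, as the gene mean (circle, orange where the adjusted p is under 0.05) with its 95% interval, and for single kept probe sets (ticks). NFE2L2 (-0.69) and GCLC (-0.52) lie left of 0 and KEAP1 (0.56) right of it, and 1 probe set of NFE2L2 and 1 of SRXN1 lie far from the others of their gene.

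The other glutathione and thioredoxin genes did not pass. GCLM, the modifier subunit that partners GCLC, had log2 5.16 and 5.46 on the combined diet and 5.63 and 5.65 on the trans-fat/HFCS diet, against 5.80 and 5.87 on the MSG diet and 5.63 and 5.78 on control. It was low on the combined diet alone, and the trans-fat/HFCS arrays overlapped control. Its main effect was -0.30 (SE 0.12, adjusted p = 0.175 in limma), and its change on the combined diet was -0.40 (SE 0.17, adjusted p = 0.291). TXNRD1, the cytosolic thioredoxin reductase, had log2 5.35 and 5.42 on the combined diet, 5.40 and 5.24 on the trans-fat/HFCS diet, 5.26 and 5.30 on the MSG diet, and 5.20 and 5.36 on control. Its main effect was 0.07, with a 95% interval of -0.18 to 0.33 (adjusted p = 0.743 in limma). Of its 13 kept probe sets, 10 had positive and 3 negative changes, from -0.52 to 0.55, and none passed alone.

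SRXN1, which repairs over-oxidised peroxiredoxins, was dim on this array, with 3 kept probe sets between log2 2.66 and 3.20. It had log2 2.82 and 2.85 on the combined diet and 2.47 and 2.81 on the trans-fat/HFCS diet, against 3.07 and 3.52 on the MSG diet and 3.06 and 3.08 on control. The 4 arrays with trans fat and HFCS lay below the other 4, but the gene did not pass (log2 -0.45, SE 0.14, adjusted p = 0.0922 in limma). A single SRXN1 probe set passed alone with -1.38 (adjusted p = 0.0484 in limma), while the others changed by -0.16 and 0.21. It read 2.61 and 3.40 on the combined diet and 1.84 and 2.20 on the trans-fat/HFCS diet, against 3.97 and 4.46 on the MSG diet and 3.72 and 3.43 on control. Its trans-fat/HFCS values lay below the filter at 2.43. The highest combined array came within 0.1 of the lowest control array.

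The quinone reductase NQO1 and the haem oxygenase HMOX1, both much used readouts of NRF2, did not pass either. NQO1 had log2 3.77 and 4.18 on the combined diet, 4.08 and 3.90 on the trans-fat/HFCS diet, 3.90 and 3.94 on the MSG diet, and 3.77 and 4.09 on control. At the gene mean the diets overlapped throughout. Its main effect of trans fat and HFCS was 0.06, with a 95% interval of -0.26 to 0.38 (adjusted p = 0.838 in limma). That of MSG was -0.01, with an interval of -0.33 to 0.31 (adjusted p = 0.994 in limma). The 6 kept NQO1 probe sets disagreed on trans fat and HFCS: 2 had positive and 4 negative changes, from -0.49 to 0.92. On the probe set with 0.92 every array with trans fat and HFCS lay above every other array. None of the 6 passed alone.

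HMOX1 had log2 4.20 and 4.09 on the combined diet and 4.07 and 4.10 on the trans-fat/HFCS diet, against 3.84 and 3.95 on the MSG diet and 3.94 and 3.92 on control. The 4 arrays with trans fat and HFCS lay above the other 4 by a small margin, and the change of 0.20 (SE 0.11) missed the threshold (adjusted p = 0.293 in limma). Its 8 probe sets split evenly, 4 higher and 4 lower. Kupffer cells express HMOX1, and the summed intensity of 13 measured Kupffer cell and macrophage markers was 416 to 421 on the combined diet, 382 to 418 on the trans-fat/HFCS diet, 349 to 370 on the MSG diet and 374 to 381 on control. Of these 13 markers 2, CD68 and MSR1, were called higher with trans fat and HFCS (log2 0.78 and 0.50, adjusted p = 0.015 and 0.0498 in limma). Of all genes 4.44% were called higher. No marker of this list was called lower, but CD163, C1QC and CSF1R had negative changes (-0.17, -0.27 and -0.19). The median change of the list was 0.20. The part of Kupffer cells in the HMOX1 values was not tested.

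Separation without overlap was common on this array: all 4 arrays with trans fat and HFCS lay above the other 4 in 8.29% of genes and below them in 6.72%. Of the 9 genes, KEAP1 and HMOX1 lay above, and NFE2L2, GCLC and SRXN1 below. The skeletal muscle markers moved with the same contrast, as 11 of 14 were called higher, where 4.44% of all genes were. Of these markers TNNT3 also stood higher on the combined diet, at log2 5.11 against 4.21 on the MSG diet and 4.36 on control. The summed intensity of the 14 was high only on the trans-fat/HFCS arrays. Without those arrays the contrast is combined minus MSG, and none of the 9 genes passed limma's test (adjusted p = 0.131 for NFE2L2, 0.307 for KEAP1 and 0.205 for GCLC), with changes of -0.74, 0.47 and -0.49. Over all arrays the changes were -0.69, 0.56 and -0.52. Summed muscle markers were 220 to 240 on the combined and 227 to 230 on the MSG diet. The part of the muscle signal in the changes of these genes was not tested.

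In the other comparisons none of the 9 genes passed limma's test. For the combined diet against control, 2 of 9 had an unadjusted p under 0.05, KEAP1 (log2 0.71, SE 0.20, adjusted p = 0.132 in limma) and GCLM, where 16.5% of all genes had one and 1.16% were called after adjustment. With trans-fat/HFCS set against control there were 3, NFE2L2 (adjusted p = 0.171 in limma), KEAP1 (log2 0.65, adjusted p = 0.128) and GCLC (adjusted p = 0.129), where 18.3% of all genes had an unadjusted p under 0.05 and 2.48% were called. There the same NFE2L2 probe set passed alone with -2.04 (adjusted p = 0.0422 in limma, where 1% of kept probe sets were called). Its values on the trans-fat/HFCS diet lay close to the filter.

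For the MSG diet against control none of the 9 had an unadjusted p under 0.05 in limma (lowest adjusted p = 0.677), where 7.64% of all genes had one and 0.296% were called. Changes ran from -0.03 for HMOX1 to 0.36 for GCLC (SE 0.16), and 7 of the 9 were positive. For the MSG main effect 1 of 9, GCLC, had an unadjusted p under 0.05, where 7.91% of all genes had one and 0.329% were called. The interaction asks whether MSG acted differently on the trans-fat/HFCS base and on chow. None of the 9 had an unadjusted p under 0.05 there (lowest adjusted p = 0.63, for GCLM, in limma), where 9.07% of all genes had one and 0.151% were called. limma's F test over the 4 diets, which called 3.2% of genes, called none of the 9, with 4 at an unadjusted p under 0.05 (19.7% of all genes) and the lowest adjusted p = 0.07 for GCLC.

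Among themselves, NFE2L2, GCLC and SRXN1 ran in parallel over the 8 arrays. NFE2L2 had r = 0.85 with GCLC and 0.83 with SRXN1, and GCLC had r = 0.77 with SRXN1. KEAP1 ran against NFE2L2 with r = -0.73. These 4 genes share the arrays and the split by trans fat and HFCS, so the values are a description. In each of NFE2L2, GCLC and SRXN1 the order of means was MSG, control, combined, trans-fat/HFCS, from high to low. NQO1 had r = -0.43 with NFE2L2 and HMOX1 had r = -0.77.

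Beyond the 10 genes, 7 lists of NRF2 partners and antioxidant enzymes held 73 measured genes of 76. For trans fat and HFCS, 2 rose and 3 fell, so 6.85% were called, beside 7.66% of all genes. At an unadjusted p under 0.05 there were 15 of the 73, beside 24.5% of all genes. The 5 calls became 0 with the median of the probe sets, 1 with the brightest, 8 with the 75th percentile filter and 9 with an offset of 16. None of the 11 measured partners and regulators of NRF2 passed (0 at an unadjusted p under 0.05 in limma), among them the related factors NFE2L1 (log2 0.13, adjusted p = 0.504 in limma) and NFE2L3 (0.55, adjusted p = 0.286) and the competing repressor BACH2 (-0.25, adjusted p = 0.414). None of 15 thioredoxin and peroxiredoxin genes passed (5 at an unadjusted p under 0.05), with TXNIP, the thioredoxin inhibitor, at 0.36 (adjusted p = 0.0964 in limma), the peroxiredoxin PRDX2 at -0.31 (adjusted p = 0.149) and the mitochondrial thioredoxin TXN2 at 0.09 (adjusted p = 0.775). None of the 4 enzymes that remove superoxide and peroxide passed (0 at an unadjusted p under 0.05): CAT, the catalase, stood at -0.10, SOD1 at -0.17 and SOD3 at 0.16 (adjusted p = 0.643, 0.494 and 0.477 in limma).

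The calls lay in NADPH supply, haem synthesis and glutathione transfer. NADPH is the reductant for both glutathione and thioredoxin, and 3 of 5 measured genes of its supply passed. The malic enzyme ME1 fell (log2 -0.64, SE 0.13, adjusted p = 0.0207 in limma). It had log2 4.68 and 4.48 on the combined diet and 4.75 and 4.71 on the trans-fat/HFCS diet, against 5.09 and 5.00 on the MSG diet and 5.72 and 5.38 on control. The MSG arrays lay between control and the diets with trans fat and HFCS, and the difference of -0.51 between MSG and control missed the threshold (adjusted p = 0.527 in limma). With its brightest probe set the ME1 change turned to 0.19 (adjusted p = 0.64 in limma). ME1 also fell on the combined diet against control (log2 -0.97, SE 0.18, adjusted p = 0.0432 in limma), a call that ended without any 1 array.

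PGD, of the pentose phosphate pathway, fell as well (log2 -0.88, SE 0.21, adjusted p = 0.041 in limma), and TALDO1, the transaldolase of that pathway, rose (log2 0.57, SE 0.12, adjusted p = 0.0285). Both calls ended in 10 of 16 alternatives. With the brightest probe set PGD stood at -0.39 (adjusted p = 0.114 in limma) and TALDO1 at 0.15 (adjusted p = 0.515), and with the median at -0.99 and 0.88 (adjusted p = 0.281 and 0.0764). ALAS1, the first enzyme of haem synthesis, rose. It had log2 8.15 and 8.01 on the combined diet and 8.20 and 8.47 on the trans-fat/HFCS diet, against 7.59 and 7.68 on the MSG diet and 7.43 and 7.23 on control. The change was 0.72 (SE 0.12, adjusted p = 0.0125 in limma), and ALAS1 also rose with trans-fat/HFCS compared with control (log2 1.01, adjusted p = 0.023) and passed the F test over diets (adjusted p = 0.0442). With the median of its probe sets the main effect was 0.25 and missed the threshold (adjusted p = 0.46 in limma).

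In the same list the ferritin light chain FTL, with 1 kept probe set, stood at 0.37 (adjusted p = 0.134 in limma) and the transferrin receptor TFRC at -0.05 (adjusted p = 0.843). GSTA4, a glutathione transferase that clears lipid peroxidation products, was the 1 called gene of 17 in glutathione synthesis and recycling. It had log2 8.55 and 8.59 on the combined diet and 8.29 and 8.70 on the trans-fat/HFCS diet, against 8.94 and 8.51 on the MSG diet and 9.59 and 9.54 on control. Control was high, and the other diets overlapped. GSTA4 fell with trans-fat/HFCS compared with control (log2 -1.07, SE 0.21, adjusted p = 0.0339 in limma) and in the main effect (log2 -0.61, SE 0.15, adjusted p = 0.0387). The main-effect call ended in 12 of 16 alternatives, with a change of -0.15 without the trans-fat/HFCS arrays (adjusted p = 0.737 in limma). The call against control ended in 9 of 16, with -0.53 for the median of the probe sets (adjusted p = 0.314) and -0.60 with no filter (adjusted p = 0.0669). The exporters ABCC3 and ABCC4 had main effects of -0.62 and -0.23 (adjusted p = 0.0572 and 0.278 in limma).

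None of the 11 measured detoxification genes passed (1 at an unadjusted p under 0.05), with the carboxylesterase CES1 at 0.41, PIR at -0.19 and the aldo-keto reductase AKR1B10 at -0.15 (adjusted p = 0.136, 0.455 and 0.694 in limma). On the MSG diet against control none of the 73 genes passed limma's test (9 at an unadjusted p under 0.05). Of all genes 0.296% passed there and 7.64% had an unadjusted p under 0.05. The median change of the 73 was 0.05, beside 0.00398 over all genes. Without any 1 array the 5 calls of the main effect became between 0 and 4: 0 without MSG array 1, 1 without control array 1 or trans-fat/HFCS array 1, 2 without control array 2, trans-fat/HFCS array 2 or combined array 2, and 3 without MSG array 2. ALAS1 kept its call in 6 of the 8, losing it without control array 2 or MSG array 1. Without both trans-fat/HFCS arrays it was 0.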

How the data were processed

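The authors deposited normalized linear intensities, 1 per exon-level probe set and array. GCRMA, Partek and hg19 stand in the list per the submitters' processing notes, and their versions and roles are not given in the sources used here. The values (2.22 to 22966) were log2 transformed. Gene names came from the platform annotation, which names 1 gene for 224320 of 257101 probe sets. Probe sets with a mean above the median (log2 2.43) were kept, and the 111624 with 1 gene were averaged per gene. The lowest kept probe set of the 10 genes (TXNRD1) lay at 2.43 and the highest left out (GCLM) at 2.42.

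Diets were compared by contrasts of 1 model with 4 groups and 8 arrays (limma 3.58.1, R 4.3.3, lmFit and eBayes, two-sided), adjusted by Benjamini-Hochberg over 17910 genes, or 128550 kept probe sets, at a threshold of 0.05. The spread had 4 residual and 5.01 prior degrees of freedom, so the number of arrays limits the precision. Errors are limma's moderated standard errors. The steps were tested on simulated data.

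The genes and lists were chosen with earlier results of these data known. All 10 genes are named. In each list the genes past the threshold in any of 7 tests are named, filled up to 3 by the smallest F-test p. Names of cat genes came from a table of assembly F.catus_Fca126_mat1.0, which held all 10 symbols. The alternatives were other filters and summaries, an offset of 16, quantile normalization, the replicate number as a block, and fewer arrays. No promoter or protein sequences were used here.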

Additional observations from a re-analysis of the deposited data

How the results depend on the processing

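The call of 3 of 9 genes for trans fat and HFCS was open to most choices. It stayed at 3 with no filter, with an offset of 16 and with quantile normalization, and became 1 with the 75th percentile filter, 0 with the median of the probe sets, 0 without the trans-fat/HFCS diet arrays and between 0 and 1 without any 1 array, where the diet's lone array is assumed to vary like the others. The brightest probe set left 2 genes, KEAP1 and SRXN1. With it the count was also 2 in the F test and 1 (SRXN1) for trans-fat/HFCS compared with control, and with the offset 3 in the F test and 1 for the combined diet against control. The changes of GCLC (0.087) and of ME1 (0.19, and 0.26 on the combined diet against control) turned sign with the brightest probe set. Counts over all genes called for trans fat and HFCS lay between 233 and 2434, against 1372.

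Of single probe sets of the 9 genes, 2 passed for trans fat and HFCS, against 1 with the 75th percentile filter or the block, 0 without the trans-fat/HFCS diet arrays and between 0 and 1 without any 1 array. For trans-fat/HFCS compared with control 1 passed, against 0 with the 75th percentile filter, the offset, the block, only the 2 diets compared or without any 1 array.

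Same-numbered arrays did not deviate together across genes (correlations between -0.06 and 0.04). The labels give no litters, and a pairing that touched few genes would not show in these correlations. Whether the replicate numbers pair the arrays is therefore unknown. With the replicate number as a block 0 of the 9 genes passed for trans fat and HFCS (adjusted p = 0.055 for NFE2L2, just over 0.05 for KEAP1 and 0.0525 for GCLC in limma), and 1026 of all genes.

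OSGIN2 was lower on each test diet in every setting. On the combined, trans-fat/HFCS and MSG diets its log2 change was -1.83, -1.94 and -1.81 with no filter, -2.62, -2.61 and -2.48 with the 75th percentile filter and -1.68, -1.70 and -1.58 with the offset. The brightest probe set gave -2.54 and -2.67 on the combined and trans-fat/HFCS diets, and the median -2.47 on MSG. Without any 1 array the trans-fat/HFCS change lay between -2.47 and -2.19. The kept probe sets of SRXN1 lay close to the filter, and 2 arrays per diet limit the precision of every gene.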
